A study of Homo sapiens with 6 samples.

Results

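The collagen chains are the polypeptides, each from its own gene, that fold in threes into the triple helices of the collagens. They were taken as the protein-coding genes whose symbol has the form COL, a number, A and a number, without COL17A1, the collagen of hemidesmosomes. 43 of the 58174 gene IDs in the deposited table met this rule. RNA was measured by sequencing of total RNA in MDA-MB-231, an established human breast cancer line that is triple-negative, which means that it lacks the estrogen and progesterone receptors and amplified ERBB2. The control group (NC) carries the genotype label control, and 2 further groups, KO1 and KO2, both carry the label ARID1A knockout. ARID1A is a DNA-binding subunit of the BAF complex, which moves and ejects nucleosomes. How the knockouts were made, whether KO1 and KO2 are separate clones, and what the control cells received are not stated in the labels, and all 3 groups share the cell line. The labels list 2 samples in each group, but the table holds 1 column of values per group, so no spread between replicates exists for any value below. KO1 and KO2 here mean the columns labelled so.

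Total estimated counts ranged from 25801499 to 26798753 over the 3 columns. The mitochondrial genome's own genes held 12.8%, 20.5% and 16.9% of the counts of NC, KO1 and KO2. Levels are given as CPM within a gene (TMM scaling puts the 3 libraries on 1 size), and as deposited TPM (which also divides by transcript length) between genes. ARID1A itself stood at 77.3 CPM in NC, 45.7 CPM in KO1 and 83.9 CPM in KO2, so in the column labelled KO2 its RNA was not lower than in NC. VIM (3411, 4719 and 2925 CPM in NC, KO1 and KO2), EGFR (152, 429 and 317 CPM) and CD44 (764, 731 and 664 CPM), markers of this mesenchymal line, were high in every column. PGR had 0 counts in all 3 columns, ESR1 had 0 counts in NC and KO1 and reached 0.5 CPM in KO2, and ERBB2 stood at 75.7, 28 and 52.4 CPM.

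Fibrillar collagens (types I, II, III, V, XI, XXIV and XXVII) form the cables of connective tissue. Type IV forms the sheet of basement membranes, type VI forms beaded filaments next to cells, and type VII anchors basement membrane to the tissue beneath it. Collagens such as XII and IX attach to the surface of fibrils, type XIII spans the cell membrane, and types XV and XVIII are proteoglycans of basement membranes whose ends can be cut off as signalling fragments such as endostatin. In carcinomas most fibrillar collagen is made by fibroblasts, while carcinoma cells themselves often make basement membrane chains.

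Of the 43 chains, 11 had 0 counts in all 3 columns, among them COL2A1 of cartilage and COL14A1 of tendon and skin. A further 12 were detected with a mean under 1 CPM, and 20 reached a mean of at least 1 CPM and are called measured. All collagen genes together had 54292 counts in NC, and KO1 and KO2 had 24785 and 40602. This is 0.203% of all counts in NC (exact 95% interval 0.2009 to 0.2043), 0.0961% in KO1 (0.09487 to 0.09726) and 0.155% in KO2 (0.1538 to 0.1568). All intervals here cover counting error alone, and because no molecular identifiers were used, reads are not independent molecules. After scaling, the summed collagen level was 1939 CPM in NC, 1077 CPM in KO1 and 1450 CPM in KO2. It was 1.8-fold lower in KO1 (1.77 to 1.83) and 1.34-fold lower in KO2 (1.32 to 1.36). This sum is not divided by length and covers all transcripts, so a few chains weigh most in it. In NC, COL4A2 held 15037 of the counts and COL5A1 held 13125. Of the 20 measured chains, 10 lay below NC in both knockout columns and 7 lay above it in both. In such bulk RNA, fewer cells that express a chain and less RNA per cell cannot be told apart.

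Per length and summed over all transcripts, COL4A2, a chain of basement membrane, was the highest collagen in NC at 142 TPM, 22.2% of the collagen TPM. COL5A1 at 95.7 TPM, COL6A1 at 95.3 TPM and COL7A1 at 66.2 TPM followed it. In KO1 the order began with COL7A1 at 78.7 TPM, 25.2% of the collagen TPM, ahead of COL4A2 at 34.7 TPM and COL5A1 at 30.7 TPM. In KO2 it began with COL13A1 at 92.9 TPM, 17.7% of the collagen TPM, ahead of COL5A1 at 73.5 TPM and COL4A2 at 72.6 TPM, which lie too close to be ordered without replicates. In protein-coding transcripts alone the order differed, since non-coding transcripts hold much of the COL6A1 value in NC and of the COL7A1 values. COL4A2 then led in NC at 140 TPM and in KO1 at 34.7 TPM, and COL13A1 led in KO2 at 77.5 TPM. By that sum COL6A1 stood at 18 TPM in NC, and COL7A1 at 20.1, 20.2 and 26.3 TPM in NC, KO1 and KO2. In KO2, 45.3 of the 92.9 TPM of COL13A1 came from 1 protein-coding transcript that starts inside the gene (ENST00000456019), on 566 of 2368 counts. Without that transcript COL13A1 would not lead KO2 by either sum. Over all transcripts the summed collagen TPM was 638 in NC, 312 in KO1 and 525 in KO2.

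**Figure D1:**
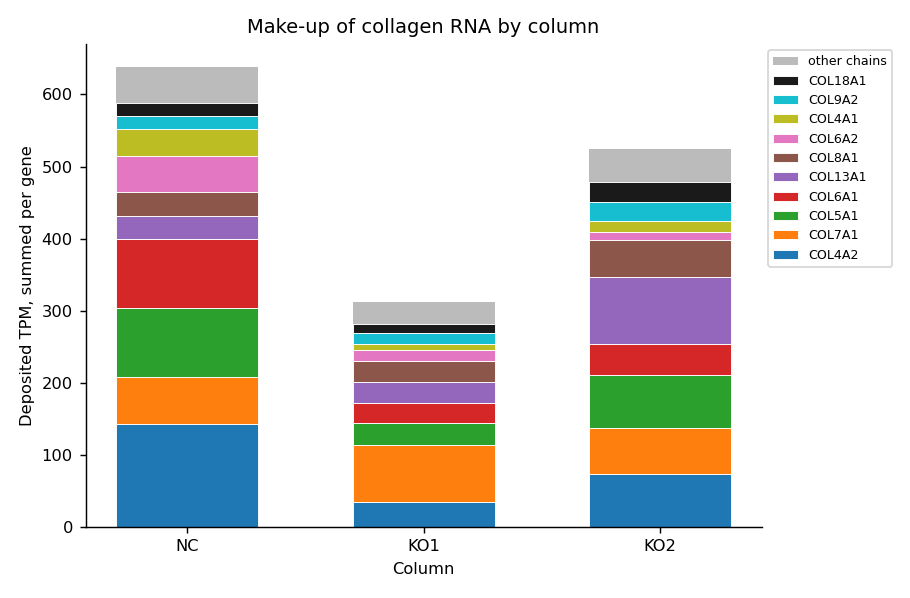
Stacked bars of deposited TPM summed per gene over all transcripts, 1 bar per column, for the 10 collagen chains with the highest levels and all other chains together. COL4A2 (blue) takes 142 TPM of 638 in NC and 34.7 TPM of 312 in KO1, while COL13A1 (purple) takes 92.9 TPM of 525 in KO2.

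Single columns were compared by a rule of size that carries no p-value. It asked for a measured gene, for a log2 fold of 1 or more in either direction (computed after adding a prior count of 2), and for an exact 95% counting interval that did not include equality. Of the 20 measured chains, 8 passed as lower in KO1 than in NC, which is 40% of them, beside 17.4% of all 14524 measured genes. Another 3 passed as higher, 15% of the chains beside 15.4% of all genes, a share no different from the background. In KO2, 6 chains (30%) passed as lower beside 9.98% of all genes, and 3 (15%) as higher beside 11.0%. The chains that passed as lower in both knockout columns numbered 5 (25%) beside 5.65% of all genes, and 1 passed as higher in both beside 6.22%. The 2 comparisons share the NC column, so a high or low NC value enters both. The median log2 fold of the measured chains was -0.50 in KO1 and -0.14 in KO2, beside -0.01 and -0.00 over all measured genes. On TPM with a pseudocount of 1 the chains' KO1 median was -0.28 beside -0.33 over all genes, so it did not lie below them. On TPM with a pseudocount of 0.1 it was -0.68 beside -0.39. By total count it was -0.89 beside -0.24, and in protein-coding transcripts only -0.54 beside -0.11. Between the knockout columns, 3 chains passed as higher in KO2 (14.9% of all genes) and 1 as lower (11.2%). In either direction, the shares of all measured genes that passed were 32.8% in KO1, 21.0% in KO2, 11.9% in both on the same side and 26.1% between the knockout columns.

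The only test with a p-value set both knockout columns, as a group of 2, against the lone NC column with edgeR's quasi-likelihood F test. With 1 residual degree of freedom, the p-values rest on how far KO1 and KO2 lie from each other, not on replicate cultures, and the NC column is assumed to vary as they do. None of the 28 collagen chains tested reached an adjusted p under 0.05, a threshold passed by 0.148% of all 18289 genes tested, and DESeq2's Wald test also called 0. At an unadjusted p under 0.05 there were 5 chains, COL6A2, COL4A1, COL4A2 and COL19A1 on the lower side and COL4A3 on the higher, beside 7.70% of all genes. The smallest adjusted p of the edgeR test among the chains was 0.364, for COL6A2. The differences below are therefore given as values, in terms of higher and lower.

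**Figure D2:**
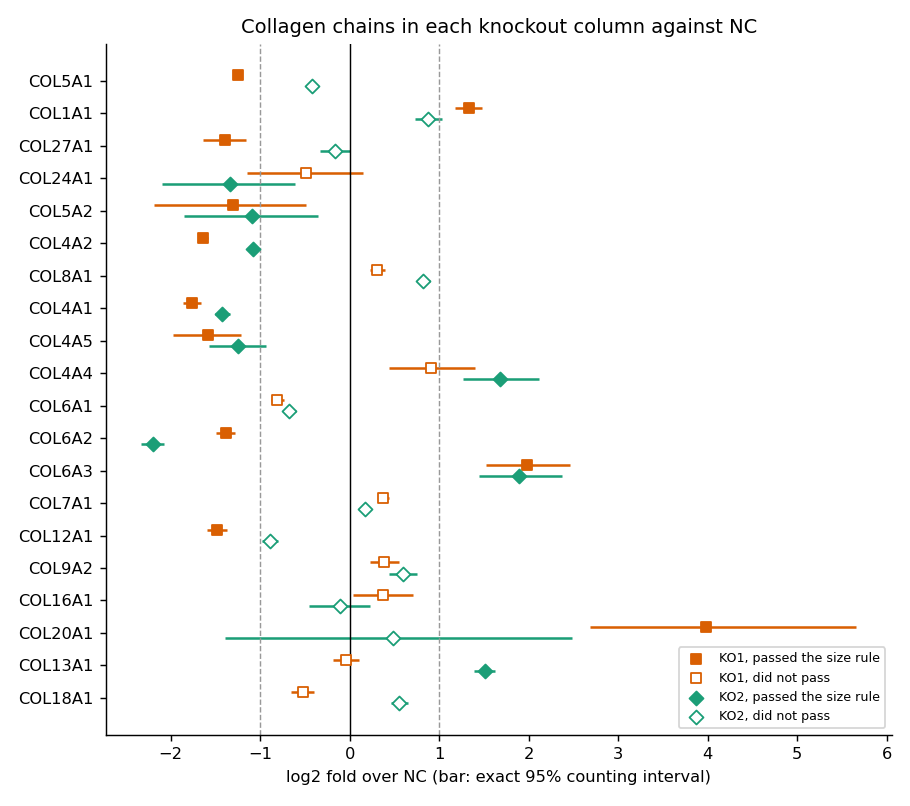
log2 fold of each measured collagen chain over NC, in KO1 (squares) and KO2 (diamonds), with bars for the exact 95% counting interval and dashed lines at the size of 1. Filled symbols passed the size rule. COL4A1, COL4A2, COL4A5, COL6A2 and COL5A2 lie on the lower side with filled symbols in both columns. COL6A3 is the only chain with filled symbols on the higher side in both.

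The major basement membrane chains were lower in both knockout columns. COL4A1 and COL4A2 encode the chains that join 2 to 1 into the common form of type IV collagen. They lie head to head on chromosome 13 (hg38), COL4A1 on the minus strand at 110148963 to 110307149 and COL4A2 on the plus strand at 110305812 to 110513027. In the RefSeq promoter windows (GRCh38.p14, 250 bases before to 50 after the gene's start) the 2 starts are 127 bases apart, and the windows share 226 bases. The windows are shown because both annotated starts lie in this stretch. Capitals mark a GC box (GGGCGG) or a CCAAT box on either strand, and the lower line is largely the reverse complement of the upper.
COL4A1, chr13:110307108-110307407, minus strand: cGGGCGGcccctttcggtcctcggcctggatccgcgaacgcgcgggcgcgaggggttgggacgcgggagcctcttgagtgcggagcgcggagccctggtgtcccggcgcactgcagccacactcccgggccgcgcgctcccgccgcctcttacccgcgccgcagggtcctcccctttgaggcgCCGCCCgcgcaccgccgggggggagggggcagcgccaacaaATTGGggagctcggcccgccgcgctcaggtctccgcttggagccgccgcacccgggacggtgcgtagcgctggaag
COL4A2, chr13:110307034-110307333, plus strand: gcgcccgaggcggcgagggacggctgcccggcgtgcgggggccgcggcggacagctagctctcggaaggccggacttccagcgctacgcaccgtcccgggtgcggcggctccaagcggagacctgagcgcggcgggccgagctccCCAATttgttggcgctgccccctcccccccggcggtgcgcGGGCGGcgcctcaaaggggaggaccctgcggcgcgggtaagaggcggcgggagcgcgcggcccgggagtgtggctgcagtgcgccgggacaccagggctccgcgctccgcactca
The shared stretch holds 1 GC box and 1 CCAAT box, and neither window holds a TATA box (TATAAA) or an AP-1 site (TGANTCA). Of 34943 promoter windows of this length, 44.9% hold a GC box, 34.6% a CCAAT box, 11.6% a TATA box and 7.72% an AP-1 site, so these matches are common ones and describe letters only. A window was found for 15 of the 20 measured chains. Among the 18 windows of those 15 genes, 13 held a GC box, 3 a CCAAT box, 4 a TATA box and 0 an AP-1 site. Matches were taken at any position in the window. The TATA box letters, on either strand, began at -32 in COL6A2, -124 in COL7A1, -204 in COL18A1 and -236 in COL13A1.

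COL4A2 had 15037, 3981 and 7116 counts in NC, KO1 and KO2, or 537, 173 and 254 CPM. Both knockout columns lay far below NC, with KO1 the lowest. It was 3.1-fold lower in KO1 (3 to 3.21) and 2.11-fold lower in KO2 (2.06 to 2.17). COL4A1 had 4241, 1028 and 1586 counts, or 151, 44.7 and 56.6 CPM, in the same order of columns. It was 3.39-fold lower in KO1 (3.17 to 3.63) and 2.68-fold lower in KO2 (2.52 to 2.84). The edgeR log2 fold over KO1 and KO2 together was -1.58 for COL4A1 (adjusted p = 0.379) and -1.33 for COL4A2 (adjusted p = 0.635). The 2 genes overlap by annotation at their starts, on opposite strands. The library kit keeps strand, but whether strand was used in counting is not given in the sources used here. The TPM ratio of COL4A2 to COL4A1 was 3.79 in NC, 3.9 in KO1 and 4.98 in KO2, so it stood above the 1 to 2 of the trimer in every column.

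COL4A5, on the X chromosome and a chain of the minor type IV network of kidney and skin, was also lower in both. It stood at 10 CPM in NC, 3.35 CPM in KO1 and 4.21 CPM in KO2, on 281, 77 and 118 counts. That is 3-fold lower in KO1 (2.32 to 3.91) and 2.38-fold lower in KO2 (1.91 to 2.98). Its neighbour in reverse orientation, COL4A6, was near the limit of detection at 28, 31 and 12 counts.

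COL4A3 and COL4A4, which assemble with COL4A5 in the kidney glomerulus, lay on the other side of NC from COL4A5. COL4A4, altered in Alport syndrome, stood at 2.21 CPM in NC, 4.17 CPM in KO1 and 7.1 CPM in KO2. It was 1.88-fold higher in KO1 (1.36 to 2.64), which did not pass the size rule, and 3.21-fold higher in KO2 (2.4 to 4.34), which did. COL4A3 had 2, 33 and 35 counts in NC, KO1 and KO2. Its ratio to NC was 20.1 in KO1 (5.14 to 173) and 17.5 in KO2 (4.49 to 150), on a mean under 1 CPM. Its adjusted p in the edgeR test was 0.423. These 2 genes are also head to head, on chromosome 2, with starts 419 bases apart and windows that share 82 bases. Their windows are shown beside those of COL4A1 and COL4A2 because the 2 pairs have the same layout and lay on opposite sides of NC. COL4A6 and COL4A5 have this layout too, with 380 bases between the nearest starts and 121 shared bases, but COL4A6 was near the limit of detection.
COL4A4, chr2:227164156-227164455, minus strand: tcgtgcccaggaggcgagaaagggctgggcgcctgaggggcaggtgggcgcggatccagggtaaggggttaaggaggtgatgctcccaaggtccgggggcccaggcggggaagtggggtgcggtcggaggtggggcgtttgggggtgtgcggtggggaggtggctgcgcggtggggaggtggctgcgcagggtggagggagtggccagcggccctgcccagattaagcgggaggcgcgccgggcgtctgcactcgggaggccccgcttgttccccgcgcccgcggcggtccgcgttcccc
COL4A3, chr2:227164374-227164673, plus strand: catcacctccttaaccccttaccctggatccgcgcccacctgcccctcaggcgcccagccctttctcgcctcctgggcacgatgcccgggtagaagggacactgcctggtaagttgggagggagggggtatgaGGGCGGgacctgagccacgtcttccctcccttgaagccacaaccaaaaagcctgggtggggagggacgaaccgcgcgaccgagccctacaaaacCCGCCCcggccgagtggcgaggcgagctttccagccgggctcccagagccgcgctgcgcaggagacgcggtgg
The COL4A3 window holds 2 GC boxes, in capitals, outside the shared bases, and the COL4A4 window holds none of the 4 motifs.

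COL8A1, of the short-chain network collagen of vessel walls and of the cornea, stood at 80.5 CPM in NC, 100 CPM in KO1 and 143 CPM in KO2. It was 1.77-fold higher in KO2 (1.68 to 1.87), short of the size rule. The 1.24-fold higher value in KO1 (1.17 to 1.32) turns to the lower side on the TPM scale, where NC had 32.7 TPM and KO1 had 28.7 TPM. Its partner COL8A2 had 3, 12 and 30 counts, a ratio to NC of 4.87 in KO1 (1.31 to 26.9) and 10 in KO2 (3.11 to 51.2).

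**Figure D3:**
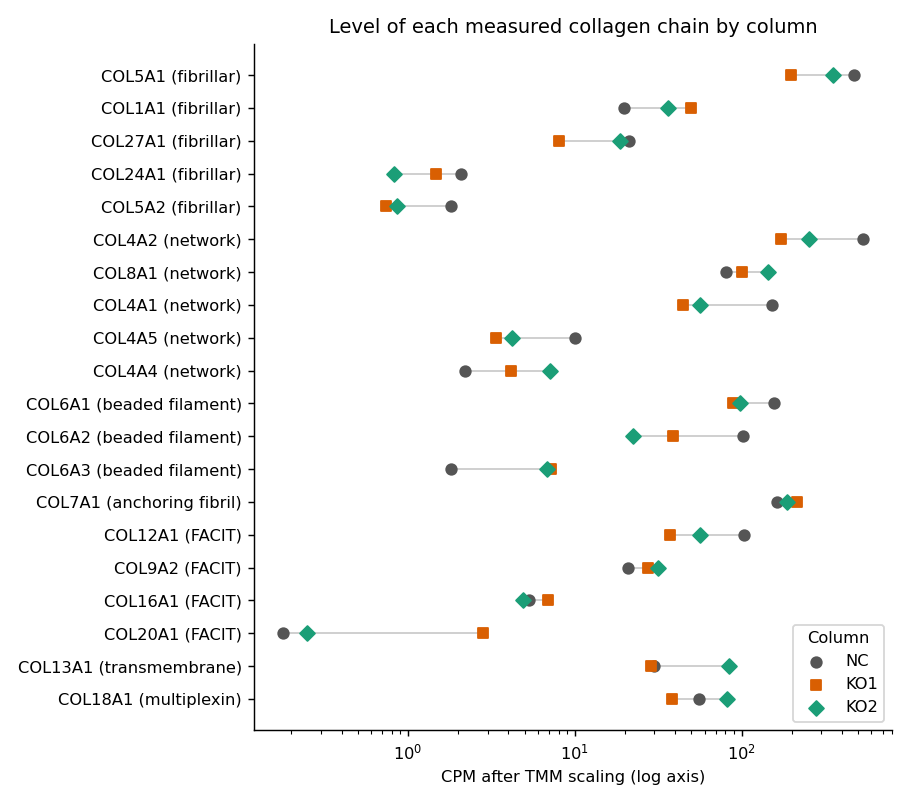
CPM after TMM scaling on a log axis for the 20 measured collagen chains, with 1 point per column (NC circles, KO1 squares, KO2 diamonds) and the structural class after each name. COL4A1, COL4A2, COL4A5, COL6A2 and COL12A1 have NC as their highest column, and COL1A1, COL6A3 and COL4A4 have NC as their lowest.

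Type VI collagen is built from a chain each of COL6A1, COL6A2 and another gene, most often COL6A3. COL6A1 and COL6A2 are neighbours on the long arm of chromosome 21, both on the plus strand. COL6A2 (46098097 to 46132849) stood at 102 CPM in NC, 38.9 CPM in KO1 and 22.2 CPM in KO2, on 2844, 894 and 621 counts. It was 2.61-fold lower in KO1 (2.42 to 2.82) and 4.58-fold lower in KO2 (4.2 to 5.01), the largest lower fold in KO2 among the measured chains. Its edgeR log2 fold was -1.74 (adjusted p = 0.364). COL6A3 stood at 1.82 CPM in NC, 7.22 CPM in KO1 and 6.78 CPM in KO2, on 51, 166 and 190 counts. It was 3.96-fold higher in KO1 (2.88 to 5.53) and 3.72-fold higher in KO2 (2.72 to 5.18). In protein-coding transcripts alone its counts were 38, 38 and 139, which leaves KO1 1.22-fold higher (0.756 to 1.96) with an interval that includes equality. No pass in both columns on the higher side is left then.

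COL6A1 (45981737 to 46005050) summed over its transcripts stood at 156 CPM in NC, 88.9 CPM in KO1 and 97.4 CPM in KO2. It was 1.75-fold lower in KO1 (1.66 to 1.84) and 1.6-fold lower in KO2 (1.52 to 1.68). The direction depends on 1 short non-coding transcript (ENST00000498614). This 6-exon processed transcript had 3076, 34 and 105 estimated counts in NC, KO1 and KO2. Of its 2358 bases, 2302 (97.6%) lie in exons 30 to 35 of the full-length coding transcript, so only 56 bases tell it apart by position. The full-length transcript (ENST00000361866) stood at 34.9 CPM in NC, 86.4 CPM in KO1 and 92.3 CPM in KO2, 2.48-fold higher in KO1 (2.29 to 2.68) and 2.65-fold higher in KO2 (2.46 to 2.85). Over all protein-coding transcripts of COL6A1 the levels were 44.6, 86.4 and 92.3 CPM, so the gene was on the higher side of NC in both columns by this sum and on the lower side by the sum over all transcripts. Whether the estimate for the short transcript reflects a separate RNA was not tested.

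The TPM ratio of COL6A1 to COL6A2, summed over all transcripts, was 1.87 in NC, 1.89 in KO1 and 3.74 in KO2. In protein-coding transcripts alone it was 0.373, 1.75 and 3.36, so NC then stood apart from both. The ratio of COL6A2 to COL6A3 was 65.3 in NC, 6.83 in KO1 and 5.84 in KO2 over all transcripts, and 242, 72.2 and 14.1 in protein-coding ones. COL6A3 RNA was thus scarce beside COL6A2 in every column and least so in the knockout columns.

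Among fibrillar chains COL5A1, which nucleates and thins fibrils of type I collagen, was the most abundant per length in every column. It stood at 469 CPM in NC, 197 CPM in KO1 and 351 CPM in KO2, on 13125, 4529 and 9821 counts. It was 2.38-fold lower in KO1 (2.3 to 2.46) and 1.34-fold lower in KO2 (1.3 to 1.37), which passed in KO1 alone. Its 2 main coding transcripts went opposite ways. ENST00000371817 had 12488, 1067 and 2676 estimated counts in NC, KO1 and KO2, and ENST00000618395 had 539, 3428 and 7083. They span nearly the same bases, and whether this split reflects separate RNAs was not tested.

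The partner of COL5A1, COL5A2, was scarce at 1.82 CPM in NC, 0.739 CPM in KO1 and 0.857 CPM in KO2. On 51, 17 and 24 counts it was 2.46-fold lower in KO1 (1.4 to 4.55) and 2.13-fold lower in KO2 (1.28 to 3.61). The pass in KO2 is lost on the TPM scale and when columns are scaled by their total counts. COL1A1, the main chain of type I collagen in skin and bone, was on the opposite side. It stood at 19.8 CPM in NC, 49.8 CPM in KO1 and 36.3 CPM in KO2, 2.52-fold higher in KO1 (2.27 to 2.79) and 1.84-fold higher in KO2 (1.66 to 2.04). It passed in KO1 but not on the TPM scale. COL1A2, its usual partner in type I collagen, had 10, 8 and 6 counts, so COL1A2 RNA was near the limit of detection in every column.

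COL27A1, a fibrillar chain of cartilage, separated the knockout columns. It stood at 21 CPM in NC, 8 CPM in KO1 and 18.7 CPM in KO2. It was 2.63-fold lower in KO1 (2.23 to 3.12), and in KO2 the interval of the 1.12-fold lower value (0.996 to 1.26) included equality. COL24A1, a fibrillar chain of forming bone, stood at 2.07, 1.48 and 0.821 CPM and passed as 2.52-fold lower in KO2 (1.53 to 4.29), a pass that is lost on the TPM scale. COL3A1, of distensible tissues, had 16, 2 and 14 counts.

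COL7A1, the anchoring fibril chain of skin, differed little between the columns. It stood at 164 CPM in NC, 214 CPM in KO1 and 186 CPM in KO2. It was 1.3-fold higher in KO1 (1.25 to 1.36) and 1.13-fold higher in KO2 (1.09 to 1.18), and on the TPM scale the KO2 value (64.9) was just below that of NC (66.2).

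Among the chains that bind to fibril surfaces, COL12A1, common around tendon and in tumour stroma, stood at 104 CPM in NC, 37.2 CPM in KO1 and 56.3 CPM in KO2. It was 2.8-fold lower in KO1 (2.59 to 3.02), which passed, and 1.85-fold lower in KO2 (1.74 to 1.97), which did not. Of its counts, the long transcript (ENST00000322507, 66 exons) took 75.6%, 74.3% and 61.6% in NC, KO1 and KO2. A shorter one (ENST00000425443, 22 exons) took 23.6%, 24.7% and 34.6%. The shorter one starts inside the gene and ends at the same base as the long one. Their shares therefore depend on how reads were divided between them. COL9A2, of cartilage, stood at 20.9, 27.3 and 31.5 CPM and passed nowhere, and its KO1 value is on the lower side of NC on the TPM scale (17.7 TPM in NC and 15.8 TPM in KO1). COL16A1 stood at 5.29, 6.87 and 4.89 CPM. A retained-intron transcript of it had 5, 73 and 11 counts, and in protein-coding transcripts alone (120, 62 and 92 counts) KO1 was on the lower side of NC.

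COL20A1 had 5, 65 and 7 counts in NC, KO1 and KO2. It was 15.8-fold higher in KO1 (6.44 to 50.4) and 11.3-fold lower in KO2 than in KO1 (5.19 to 29.2). In protein-coding transcripts its counts were 5, 28 and 2, with a mean under 1 CPM, so that neither pass is kept there. COL19A1 had 15 counts in NC and 0 in both knockout columns. Set against a floor of 3 counts per column, KO1 was at least 4.11-fold lower and KO2 at least 5-fold lower. The adjusted p in the edgeR test was 0.456.

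The transmembrane chain COL13A1, found at cell adhesions and at the neuromuscular junction, differed in KO2. It stood at 29.7 CPM in NC, 28.8 CPM in KO1 and 84.5 CPM in KO2, on 831, 662 and 2368 counts. Over all transcripts NC and KO1 could not be separated, with a 1.03-fold lower value in KO1 (0.93 to 1.14). In protein-coding transcripts alone, on 721 and 487 counts, KO1 was 1.22-fold lower than NC (1.08 to 1.37). Over all transcripts KO2 was 2.85-fold higher than NC (2.63 to 3.09) and 2.94-fold higher than KO1 (2.69 to 3.21).

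COL18A1, which carries endostatin at its end, lay on opposite sides of NC in the knockout columns. It stood at 55.2 CPM in NC, 38.3 CPM in KO1 and 81.3 CPM in KO2. That is 1.44-fold lower in KO1 (1.32 to 1.57) and 1.47-fold higher in KO2 (1.38 to 1.57), neither of which passed. KO2 was 2.12-fold higher than KO1 (1.96 to 2.29), which did. The gene has an upstream start and a downstream start on chromosome 21. Both RefSeq windows are shown since the estimated counts differed by start, with GC boxes (GGGCGG) and the TATA box (TATAAA) in capitals.
COL18A1 upstream, chr21:45404915-45405214, plus strand: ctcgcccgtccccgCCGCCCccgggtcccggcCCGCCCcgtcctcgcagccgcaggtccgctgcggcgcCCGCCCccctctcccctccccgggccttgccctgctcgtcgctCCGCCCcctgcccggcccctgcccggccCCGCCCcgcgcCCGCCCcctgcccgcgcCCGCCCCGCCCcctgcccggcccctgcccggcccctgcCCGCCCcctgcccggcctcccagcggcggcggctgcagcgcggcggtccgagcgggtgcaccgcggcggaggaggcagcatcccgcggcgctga
COL18A1 downstream, chr21:45455272-45455571, plus strand: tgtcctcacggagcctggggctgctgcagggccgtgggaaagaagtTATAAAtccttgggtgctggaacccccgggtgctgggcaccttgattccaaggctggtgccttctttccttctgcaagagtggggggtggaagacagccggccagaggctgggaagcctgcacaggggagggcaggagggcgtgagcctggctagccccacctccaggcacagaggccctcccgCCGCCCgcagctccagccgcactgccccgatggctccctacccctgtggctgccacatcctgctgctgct
The upstream window holds 9 GC boxes, some of them overlapping, at 86.7% G and C. The downstream window holds 1 GC box and 1 TATAAA match at 66.3% G and C. That match begins at -204 from the downstream start and describes letters only. The transcript from the upstream start (ENST00000400337) stood at 46.3 CPM in NC, 27.3 CPM in KO1 and 41 CPM in KO2. The pair from the downstream start (ENST00000355480 and ENST00000359759) together had 155, 0 and 772 counts in NC, KO1 and KO2. They were 4.98-fold higher in KO2 (4.18 to 5.95) and, set against a floor of 3 counts, at least 42.4-fold lower in KO1. They made up 10% of the gene's counts in NC and 33.9% in KO2. A transcript from a start further inside the gene (ENST00000342220) stood at 1.61, 9.48 and 7.71 CPM. All these transcripts overlap by position up to ends at 45513719 or 45513720, so their counts depend on how reads were divided among them. The counting intervals do not cover that division. Whether the 0 counts in KO1 reflect an unused start was not tested. COL15A1, the other chain of its class, had 47, 6 and 27 counts.

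**Figure D4:**
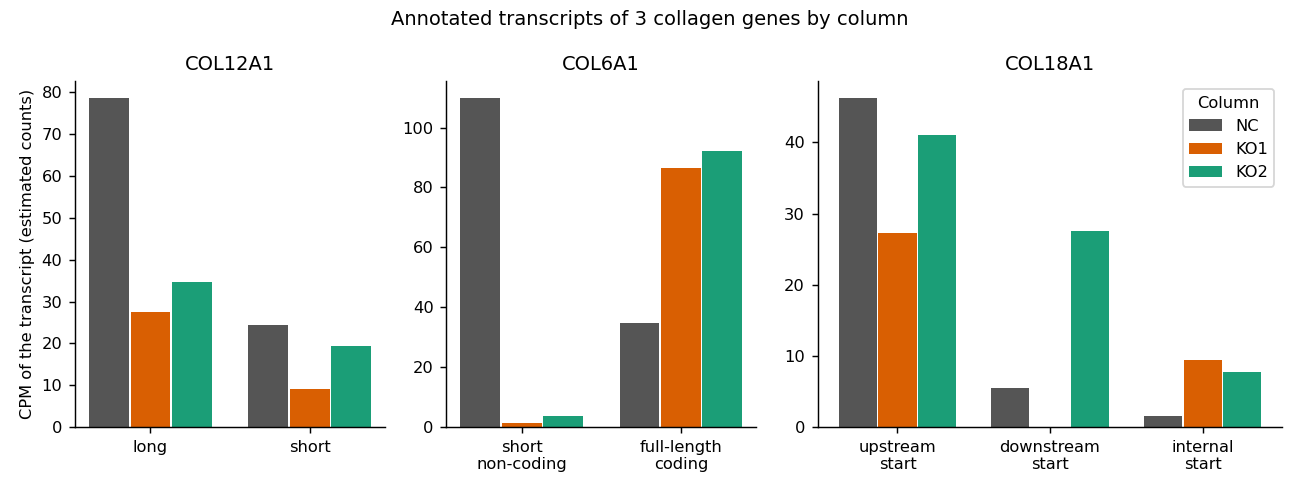
CPM of estimated counts for annotated transcripts of COL12A1, COL6A1 and COL18A1, with bars from 0 for NC, KO1 and KO2. The transcripts of each gene overlap by position, so the bars depend on how reads were divided among them. The long COL12A1 transcript stands at 78.6, 27.6 and 34.7 CPM, the short non-coding COL6A1 transcript at 110, 1.48 and 3.75 CPM, and the downstream-start COL18A1 transcripts are at 0 in KO1.

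Chains next to each other on a chromosome can share differences with their surroundings, so each measured chain was set beside the 25 nearest measured genes on each side that are not collagens (35 or 36 in all for the 3 genes near the end of chromosome 21). The median log2 fold of the neighbours ran from -0.65 to 0.58 in KO1 and from -0.69 to 0.52 in KO2. Around COL4A1 and COL4A2 it was -0.65 in KO1 and -0.45 in KO2, the lowest of any measured chain in KO1, beside -1.76 and -1.63 for the chains themselves in KO1. Around COL5A1 it was -0.50 and -0.69, which in KO2 is below the -0.42 of COL5A1 itself. Around COL4A5 the neighbours were on the higher side, at 0.44 and 0.31, while the chain had -1.56 and -1.24. Around COL12A1 they stood at 0.16 and 0.36 and the chain at -1.48 and -0.88. The chain was on the same side of 0 as its neighbours for 14 of 20 genes in KO1 and 10 of 20 in KO2. These 20 are not separate, since COL4A1 and COL4A2 had the same neighbour medians and the 3 chromosome 21 genes had similar ones. The same count over all measured genes was not made, so neither number shows an effect of position. The part of chromosome copy number in any of these values was not tested.

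**Figure D5:**
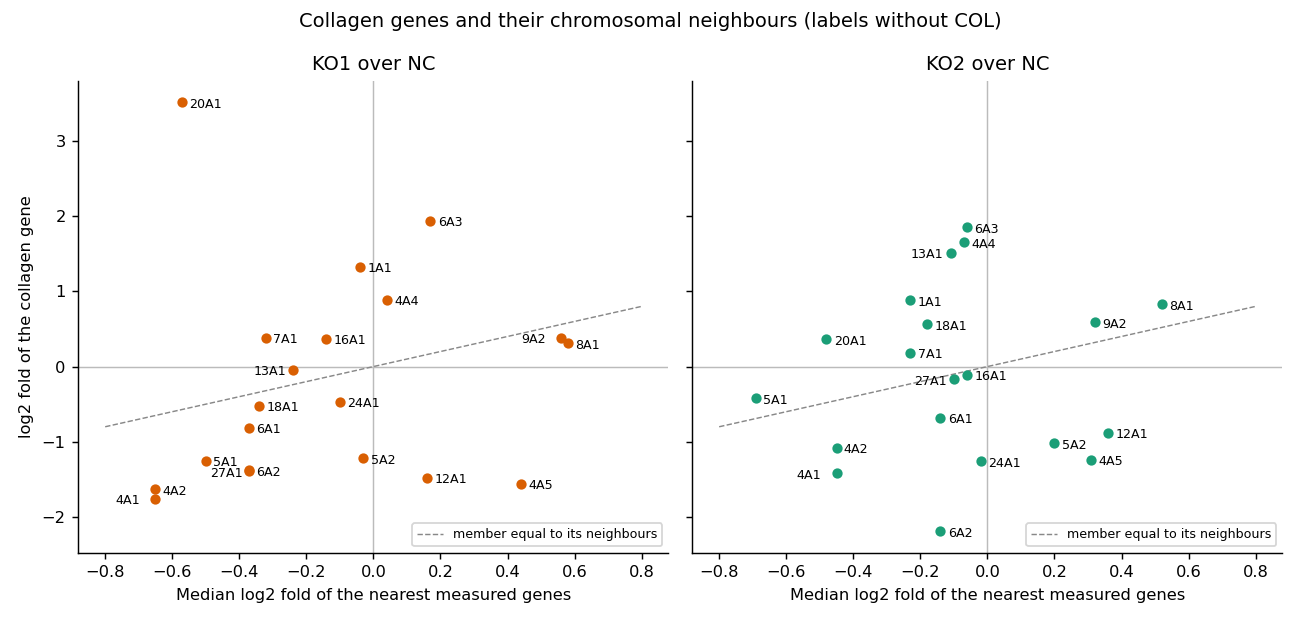
log2 fold of each measured collagen chain (vertical axis) against the median log2 fold of its nearest measured genes (horizontal axis), in KO1 on the left and KO2 on the right, with a dashed line where both are equal. The neighbours' medians stay between -0.69 and 0.58, COL4A1 and COL4A2 lie at the left and below the line, and COL4A5 and COL12A1 lie at the lower right.

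Genes that modify, fold, export and process collagen were taken from a list of 38, of which 32 were measured. In KO1, 3 passed as higher (9.38%, beside 15.4% of all genes) and 7 as lower (21.9%, beside 17.4%). In KO2, 4 passed as higher (12.5%, beside 11.0%) and 5 as lower (15.6%, beside 9.98%). The median log2 folds were -0.25 and 0.01. Those lower in both numbered 5, 15.6% of the measured genes of the list beside 5.65% of all genes. COLGALT1, which adds galactose to hydroxylysine, stood at 448 CPM in NC, 194 CPM in KO1 and 167 CPM in KO2. COLGALT2, its relative, stood at 20, 7.87 and 9.5 CPM. P3H3 and P3H4, which act with lysyl hydroxylase on helical collagen, stood at 13.2, 0.348 and 1.79 CPM and at 21.1, 3.26 and 7.43 CPM. PCOLCE2, an enhancer of C-propeptide cleavage, stood at 14.4, 2.78 and 2.75 CPM. The lysyl hydroxylases themselves did not pass. PLOD1 stood at 133, 92.1 and 122 CPM, PLOD3 at 100, 83.9 and 70.2 CPM, and PLOD2 at 61, 101 and 121 CPM, which puts PLOD2 on the higher side in both columns.

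The 3 higher in both, beside 6.22% of all genes, were MIA2, FKBP14 and ADAMTS14. MIA2, which with MIA3 exports collagen from the endoplasmic reticulum, stood at 21 CPM in NC, 113 CPM in KO1 and 46.1 CPM in KO2. FKBP14, a prolyl isomerase, stood at 14.5, 30.4 and 47.6 CPM. ADAMTS14, which cleaves N-propeptides of fibrillar collagen, had 0, 114 and 167 counts in NC, KO1 and KO2, at least 46.3-fold higher in KO1 and at least 55.6-fold higher in KO2 against a floor of 3 counts. It had the smallest adjusted p of the list in the edgeR test, 0.0711. Of the 35 tested genes of the list, 0 were called, beside 0.148% of all genes tested. An unadjusted p under 0.05 in that test was found for 6 of the 35, beside 7.70% of all genes tested. The most abundant genes of the list did not pass. P4HB, a subunit of prolyl 4-hydroxylase, stood at 772, 891 and 681 CPM, and the crosslinking enzyme LOXL2 stood at 510, 821 and 767 CPM. PPIB and CRTAP, of the prolyl 3-hydroxylation complex, stood at 306, 601 and 372 CPM and at 438, 315 and 420 CPM. SERPINH1, less abundant than these, passed as lower in KO1 alone, at 92, 33.8 and 54.9 CPM in NC, KO1 and KO2.

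Of 15 receptors that bind collagen, 12 were measured. In KO1, 1 passed as higher (8.33%, beside 15.4% of all genes) and 4 as lower (33.3%, beside 17.4%). In KO2, 3 passed as higher (25%, beside 11.0%) and 2 as lower (16.7%, beside 9.98%). The 2 lower in both (16.7%, beside 5.65%) were MRC2, the endocytic receptor that takes up cleaved collagen, at 55.9, 12.9 and 27.8 CPM, and LAIR1, an inhibitory receptor, at 2.57, 0.261 and 0.821 CPM. MRC2 in KO2 sits at the limit of the size rule, at 2.01-fold lower (1.84 to 2.19). CD44 and the integrin subunit ITGB1 (547, 591 and 688 CPM) were the most abundant. ITGA2, the partner of ITGB1 in collagen binding, stood at 33.8 CPM in NC, 93.7 CPM in KO1 and 52.5 CPM in KO2. It passed as higher in KO1. ITGA1 (11.8, 21.5 and 32.3 CPM) and ITGA10 (0.75, 0.869 and 6.46 CPM) passed as higher in KO2. SDC1 stood at 43.7, 63.2 and 60.9 CPM. In the edgeR test 0 of 13 receptors were called, 1 had an unadjusted p under 0.05, beside 7.70% of all genes, and the smallest adjusted p was 0.635.

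Markers of other cells that make collagen were set beside these values. Of 10 fibroblast markers, 7 had a count in some column, and their summed level was 39.3 CPM in NC, 6.56 CPM in KO1 and 12.9 CPM in KO2. DCN, POSTN and MFAP5 had 0 counts in all 3 columns, and PDGFRA (5, 0 and 0 counts), THY1 (2, 0 and 0) and FAP (6, 0 and 6) were near 0. LUM, with a mean under 1 CPM, had 35, 4 and 10 counts. The 3 measured markers, FBLN1, PDGFRB and ACTA2, all passed as lower in both columns, beside 5.65% of all genes. Endothelial markers summed to 4.71, 3.26 and 8.21 CPM, with TIE1 and ERG at 0 counts in every column. Of the 2 measured, KDR passed as higher in both columns, beside 6.22% of all genes, at 0.786, 2.65 and 1.68 CPM. PECAM1 stood at 3.36, 0.609 and 5.93 CPM. Smooth muscle and pericyte markers summed to 19, 9.96 and 14.9 CPM. Chondrocyte and osteoblast markers summed to 126, 56.5 and 127 CPM, nearly all SOX9 and RUNX2, with ACAN and SP7 at 0 counts throughout. Leukocyte markers summed to 44.5, 18.5 and 51.8 CPM, mostly CD68, with PTPRC at 0, 0 and 4 counts.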

How the data were processed

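Stranded total RNA libraries were made after Trizol extraction, per the labels' protocols. The submitters' processing notes list hg38 and the tools CASAVA, Bowtie2 and featureCounts, with no version, and the tool that estimated transcript values is not given in the sources used here. The authors deposited 1 table of 199167 transcripts with expected counts (estimated counts, stored as whole numbers) and TPM, per the file headers, and 1 column of each per group. Another 3 columns of the table, FPKM, were not used. It does not say whether a column is 1 library or both samples of the group.

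Counts were summed per gene ID. Symbols were found for 57392 of 58174 gene IDs in current gene names. Gene and transcript types and exons come from GENCODE release 29, which holds 57836 of the IDs. Deposited TPM was summed per gene as an alternative and for comparing genes. Library sizes were scaled by TMM (edgeR 4.0.16, R 4.3.3) over genes kept by filterByExpr. Folds carry exact 95% Clopper-Pearson intervals, conditional on the summed count. The design fixed a size rule without a p-value because no replicates exist. The edgeR test (glmQLFit with robust estimation, glmQLFTest, two-sided, Benjamini-Hochberg over all genes tested) used rounded counts, and DESeq2 1.42.0 was an alternative. The scripts were tested on simulated data. Promoter windows come from RefSeq (GRCh38.p14) and matched 31 of the 43 chains.

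Every chain with a mean of at least 1 CPM is named. Of the machinery and receptor lists, those passing in both knockout columns and up to 4 more with the highest mean are named. Chains under 1 CPM, single transcripts, PLOD genes, SERPINH1, ITGA1, ITGA10 and markers named beside these were chosen after their values were seen. The members and lists were chosen with earlier results of these data known. Alternatives covered scaling, library definition, minimum level, prior count, fold threshold, TPM with a pseudocount of 0.1 or 1, protein-coding transcripts only, and the settings of the test.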

Additional observations from a re-analysis of the deposited data

Results flagged for a closer look

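Among the 20 chains, 32 processing genes and 12 receptors that were measured, 4 lay on opposite sides of NC in the 2 columns labelled as ARID1A knockouts. For these 4 both counting intervals excluded equality, and the size rule was passed in at least 1 comparison. The share of all genes that meet these conditions was not computed, so whether 4 is many cannot be said. Of all measured genes, 26.1% passed the size rule between the knockout columns. With 1 column each, these differences were not tested. COL18A1 stood at 55.2 CPM in NC, 38.3 CPM in KO1 and 81.3 CPM in KO2, which put KO2 2.12-fold above KO1. P4HA1, a catalytic subunit of prolyl 4-hydroxylase, stood at 47, 24.2 and 68.7 CPM, and KO2 was 2.84-fold above KO1. The collagen receptor DDR1 stood at 33.9, 16.7 and 40.8 CPM, and KO2 was 2.45-fold above KO1. ADGRG6, an adhesion receptor that binds type IV collagen, stood at 22.5, 4.26 and 49.9 CPM, and KO2 was 11.7-fold above KO1.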

How the results depend on the processing

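No paired analysis was possible because the table gives 1 column per group with no replicate number, and for the same reason no replicate could be left out. DESeq2 size factors and a prior count of 0.5 kept all chains that passed. COL4A1, COL4A5 and COL6A2 remained lower in both knockout columns under every alternative except a log2 fold of at least 1.5, and COL4A2 was lost from both at 1.5 and on TPM.

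The 3 chains higher in KO1 became 5 with no minimum level, 1 on TPM with a pseudocount of 1 and 1 in protein-coding transcripts only. The 8 lower in KO1 became 3 at a log2 fold of at least 1.5. The 3 higher in KO2 became 5 with no minimum, 6 at 0.58 and 1 on TPM with a pseudocount of 1, and the 6 lower became 1 at 1.5. The 1 higher in both became 2 with nuclear protein-coding genes only, 3 with no minimum, 3 at 0.58, 0 on TPM with a pseudocount of 1 and 0 in protein-coding transcripts only, and the 5 lower in both became 0 at 1.5. For KO2 against KO1, the 3 higher became 6 by total count, 5 with no minimum, 6 at 0.58, 1 at 1.5, 7 on TPM with a pseudocount of 0.1 and 5 with 1. The 1 lower became 0 by total count, 2 with nuclear protein-coding genes, 0 at a mean of 5 CPM, 2 with no minimum, 3 at 0.58 and 0 in protein-coding transcripts only. The 2 receptors lower in both became 1 with nuclear protein-coding genes only. Where a fold threshold or minimum was altered the count moved by construction, and otherwise the cause was not tested.

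Over all measured genes the median log2 fold in KO1 was -0.24 by total count, -0.39 and -0.33 on TPM (pseudocounts 0.1 and 1) and -0.11 in protein-coding transcripts only, and KO1 folds there are to be read against it. The chains' own KO1 median ran from -0.89 by total count to -0.20 with nuclear protein-coding genes only. Of 420 single folds under alternatives, 19 altered sign, none of which had passed the size rule. The edgeR test of the chains called 0 in each of 5 other settings, the last of which and the protein-coding sums were chosen after seeing the data. The genes called over all varied from 6 to 493 against 27, the number with an unadjusted p under 0.05 among the chains from 4 to 7, and their smallest adjusted p from 0.178 to 0.438. Chains with few counts, such as COL4A3 and COL19A1, are limited by depth.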
